A study of Homo sapiens with 3 samples.

Results

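The Rab family of small GTPases was read in 22Rv1, a human prostate cancer cell line, 48 h after transfection with a plasmid carrying transcript V4 of MLPH, with a plasmid carrying transcript V1, or with empty vector. The gene's protein, melanophilin, tethers RAB27A to a myosin motor on melanosomes. The series has 3 samples, 1 per group, and 20 μg of MLPH plasmid was given to the V4 and V1 cells. What was compared is the V4 library over the V1 library: the name of the remaining count column matches no sample label, so the empty vector was not analysed here. Both compared groups carry an MLPH plasmid in 1 cell line, and the sources used here do not name the plasmid's promoter. Family members were the rows whose symbol is RAB, a number and at most 2 more letters or digits. RAB27A, RAB27B, RAB38 and the genes of Rab-binding proteins were left out. This gave 50 of the 15488 genes of the table, out of 62 RefSeq protein-coding symbols of that form; the other 12 are not analysed here.

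A Rab protein is a switch. Exchange factors load it with GTP on a membrane, where it recruits effectors such as tethers, coats and motors, and GTPase-activating proteins turn it off. Lipid groups added to its tail by a prenyltransferase anchor it, and a GDP dissociation inhibitor draws the inactive form back into the cytosol. Each Rab marks its own set of membranes, so the family is commonly sorted by route: endoplasmic reticulum to Golgi, early endosome, recycling endosome, late endosome and lysosome, and secretion. In prostate and other epithelia, Rab proteins direct secretion, polarity and the return of receptors to the surface.

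Totals were 9609381 counts in the V4 library and 9253399 in the V1 library. A gene at 0 counts could thus lie at up to 0.312 CPM (counts scaled to a common library total) in the V4 library and 0.324 CPM in the V1 library, by counting error alone. Since each group is 1 library, nothing below was tested over samples or checked in a replicate. Each ratio describes a pair of libraries, and its 95% exact interval covers counting error only. Without the empty vector, a ratio cannot tell a lower level in the V4 library from a raised level in the V1 library. MLPH itself had 7773 counts in the V4 library and 7219 in the V1 library. Counts per gene do not separate its transcripts, so they do not check which plasmid each library received. Of the luminal prostate markers, HOXB13 had 536 and 621 counts, and KRT8 1636 and 2085, in the V4 and V1 libraries. Some luminal markers were at or near 0 in both: TMPRSS2 had 2 and 1 counts, SLC45A3 had 0 and 1, and KLK2 had 13 and 8. Of 5 leukocyte markers, PTPRC, CD3E and ITGAM had 0 counts in both, LYZ had 6 and 7, and CD68 had 59 and 86, a ratio of 0.677 (interval 0.477 to 0.953). No basal or pigment cell marker passed 6.27 CPM in either library. Of the basal markers, DST had 35 and 16 counts, a ratio of 2.16 (interval 1.16 to 4.17). KRT5 had 15 and 8 with an interval that included 1, and KRT14 had 0 and 4. The libraries differed more widely in some mesenchymal markers. Of 11 such markers in the table, 6 had 0 counts in the V4 library and 2 in the V1 library, and their summed level was 110 CPM against 284 CPM. COL1A2 had 4 counts in the V4 library and 976 in the V1 library, COL3A1 had 0 and 526, and SPARC had 9 and 167, whereas COL5A2 had 969 and 876. LUM had 44 and 33, and TWIST1 had 31 and 27. FAP had 0 counts in the V4 library and 14 in the V1 library, PDGFRB had 0 and 6, and COL5A1 had 0 and 3. FN1 and THY1 had 0 counts in both.

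The family as a whole was nearly level between the libraries. Its 50 members had 55270 counts in the V4 library and 52004 in the V1 library, 0.575% of all counts (exact 95% interval 0.570% to 0.580%) against 0.562% (interval 0.557% to 0.567%). The ratio of scaled sums was 1.05 (interval 1.04 to 1.06), and 1.02 when libraries were scaled by total counts. At a mean of at least 1 CPM, 47 members were kept beside 8840 genes in all. The median log2 ratio of kept members was 0.01, beside -0.00 over all kept genes, and it was -0.02 with total counts as the scale. The middle 50% of members spanned -0.22 to 0.16 on the log2 scale, against -0.24 to 0.23 for all kept genes.

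A gene was called higher or lower in the V4 library when its ratio, with a prior count of 2 added, was at least 1.5-fold and its counting interval left out 1. By this rule RAB34, RAB31, RAB22A and RAB8B were lower, RAB39A and RAB3B were higher, and 41 members were neither. Among all kept genes 7.1% were called lower and 5.5% higher, so 4 of 47 (8.51%) and 2 of 47 (4.26%) are shares near the background. The interval alone left out 1 for 22 of 47 members, 46.8% of them, against 40.9% of all kept genes. Of these 22, 13 were higher and 9 lower in the V4 library, where the background was 19.9% higher and 21% lower. With total-count scaling the split was 10 higher and 13 lower, so the balance of small differences depends on the scale. None of the 16 members with at least 1000 counts in both libraries was called, and the largest fold among them was 1.23.

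**Figure D1:**
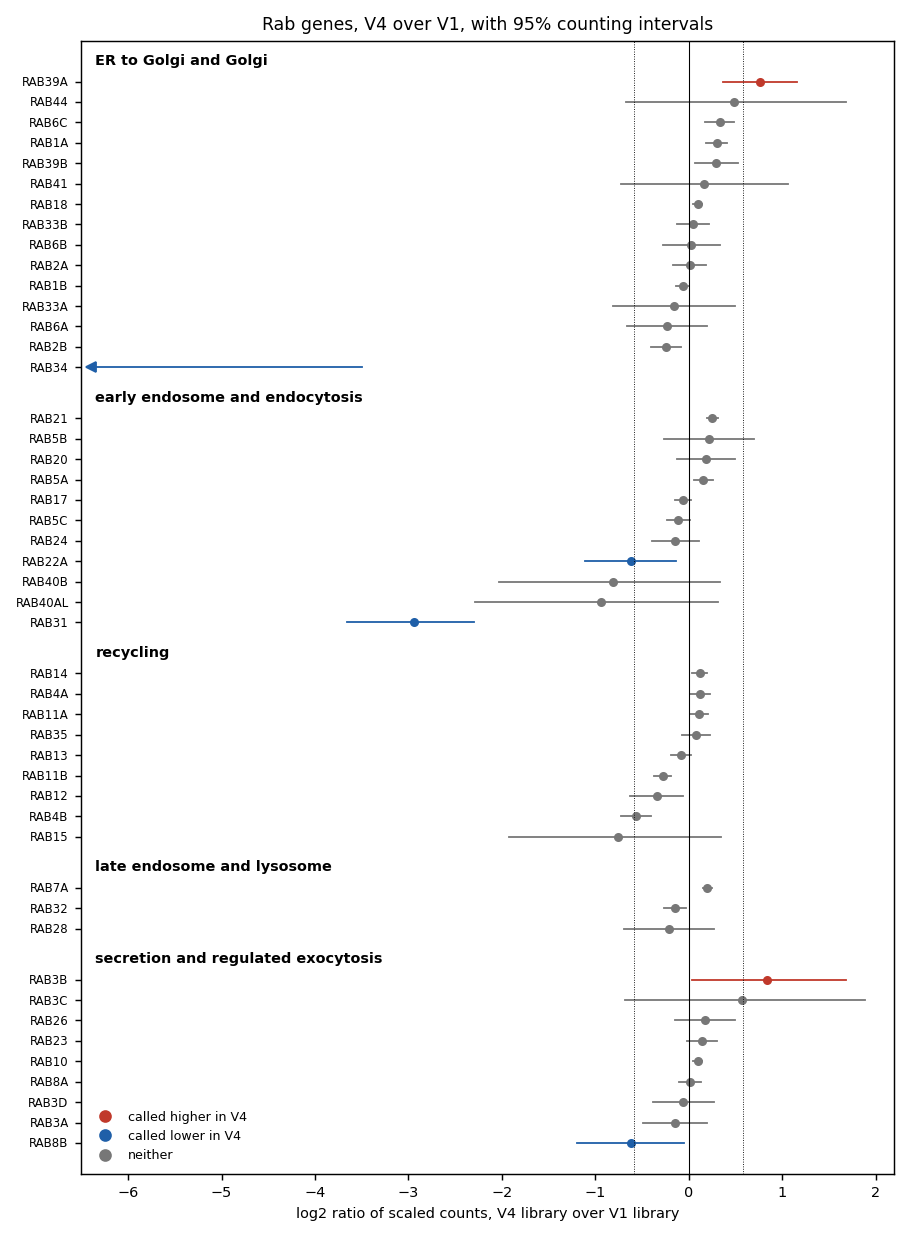
Log2 ratio of scaled counts (no prior count), V4 library over V1 library, for the 47 kept Rab genes grouped by route, with points for the ratio, lines for 95% counting intervals and dotted lines at 1.5-fold. RAB34, with 0 counts in the V4 library, is an arrow whose interval has no lower end, RAB31 stands at 0.130 of its V1 level, and most other members lie close to 0.

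Because RAB31, RAB34 and RAB39A stand farthest from a ratio of 1 among called members by the nearer end of the interval, the promoter windows of these genes are shown. They lie mostly upstream of a transcription start and end 50 bases into the transcript, from RefSeq on GRCh38.p14, on the strand of the gene, 5′ to 3′. Capitals mark matches on either strand to any of 6 motifs: the GC box GGGCGG, the CCAAT box CCAAT, the TATA box TATAAA, the AP-1 motif TGANTCA, the E-box CACGTG and the ETS motif CCGGAAG.
RAB31, chr18:9708051-9708350, plus strand: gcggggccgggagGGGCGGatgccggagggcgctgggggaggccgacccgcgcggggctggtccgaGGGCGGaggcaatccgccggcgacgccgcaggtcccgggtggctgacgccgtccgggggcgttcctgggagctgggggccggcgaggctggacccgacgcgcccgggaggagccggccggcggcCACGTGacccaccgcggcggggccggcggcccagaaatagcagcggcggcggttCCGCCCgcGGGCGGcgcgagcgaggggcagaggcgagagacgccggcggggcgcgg
RAB34, chr17:28717819-28718118, minus strand: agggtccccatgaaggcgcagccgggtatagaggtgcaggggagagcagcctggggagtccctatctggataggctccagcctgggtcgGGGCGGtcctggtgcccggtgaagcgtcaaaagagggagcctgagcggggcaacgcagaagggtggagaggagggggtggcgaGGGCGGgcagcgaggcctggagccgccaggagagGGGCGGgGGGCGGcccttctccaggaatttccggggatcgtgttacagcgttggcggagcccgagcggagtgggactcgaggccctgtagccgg
RAB39A, chr11:107928198-107928497, plus strand: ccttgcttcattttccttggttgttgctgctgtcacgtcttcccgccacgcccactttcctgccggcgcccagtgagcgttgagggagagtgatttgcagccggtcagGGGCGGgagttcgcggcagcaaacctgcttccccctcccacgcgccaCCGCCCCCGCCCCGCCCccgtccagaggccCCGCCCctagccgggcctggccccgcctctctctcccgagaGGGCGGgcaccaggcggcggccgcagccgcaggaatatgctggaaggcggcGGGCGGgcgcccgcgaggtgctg
The window of RAB31 holds 4 GC boxes and 1 E-box, with a GC content of 82.7%. RAB34 has 3 starts in the table; the window shown, farthest downstream, holds 4 GC boxes, and the other two hold 0 GC boxes and 1 AP-1 motif each, in bases where those windows overlap, and one of them also holds 1 CCAAT box. The window of RAB39A holds 7 GC boxes, some overlapping, and no match to the other motifs. A GC box was found in 33 of 40 members with a window (82.5%, first listed start) and in 45% of all 35116 windows. Members entered with 1 window each, whereas all windows include every listed start of a gene, so the units differ. The first listed window of RAB34 holds 0 GC boxes and is not the one shown. An AP-1 motif was found in 3 of 40 members (7.5%) and in 7.71% of all windows, and an E-box in 5 of 40 (12.5%) and in 7.26%. The median GC content was 67.2% for members and 58.7% for all windows. These matches are letters in a window, not sites of binding, and called members on both sides of the ratio hold GC boxes.

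RAB31, a trans-Golgi and endosomal GTPase also known as RAB22B, had 22 counts in the V4 library and 167 in the V1 library. The V4 level was 7.70-fold lower (interval 4.92 to 12.6). RAB22A, its closest relative and a regulator of early endosomes, had 60 and 91 counts, 1.54-fold lower (interval 1.10 to 2.17). Both close relatives were therefore called on the same side, with folds whose intervals do not overlap. RAB34, which acts in Golgi and lysosome positioning and in the primary cilium, had 0 counts in the V4 library and 43 in the V1 library. Set against a floor of 3 counts per library, with the V1 count taken as exact, RAB34 was at least 14.5-fold lower with V4. Its counting interval, which also covers the error of the V1 count, ended at 11.3-fold lower. RAB8B, an exocytic GTPase of the Golgi and cilium, had 45 and 68 counts, 1.53-fold lower (interval 1.04 to 2.29). RAB31 and RAB34 were lower in the library in which 3 of 6 kept mesenchymal markers, COL1A2, COL3A1 and SPARC, were lower. The other 3, COL5A2, LUM and TWIST1, had ratios of 1.09, 1.32 and 1.13 with intervals that included 1. Under the filter, FAP, PDGFRB and COL5A1 had counts in the V1 library only. The summed level of the 11 markers was 110 CPM in the V4 library and 284 CPM in the V1 library, and their part in the result was not tested. In a bulk library, fewer cells of a type and less RNA per cell cannot be told apart.

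RAB39A, linked to late endosomes and autophagy, had 151 counts in the V4 library and 88 in the V1 library, 1.69-fold higher (interval 1.29 to 2.23). Its paralog RAB39B had 353 and 284 counts, a ratio of 1.23 (interval 1.05 to 1.44). RAB3B, a GTPase of regulated exocytosis, had 38 and 21 counts, 1.78-fold higher (interval 1.02 to 3.20). Its call ended with total-count scaling and with a transcript length or GC trend removed (log2 ratio 0.75, 0.47 and 0.70). Just inside the threshold lay RAB8B at 1.51-fold with the prior, and just outside it RAB4B at 1.47-fold. RAB4B, picked out here after its value was seen, was called lower with total-count scaling (log2 ratio -0.59). Another 3 members, RAB40AL (9 and 17 counts), RAB40B (11 and 19) and RAB15 (12 and 20), passed the fold with intervals that included 1, so no difference was detectable at their depth.

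Level per transcript length, in RPKM (CPM per kilobase), ordered the family much alike in both libraries. RAB7A, which drives traffic to the lysosome, stood highest at 432 RPKM in the V4 library and 385 RPKM in the V1 library. RAB10, of basolateral and insulin-responsive secretion, followed at 199 and 191 RPKM, then RAB1B, of transport from the endoplasmic reticulum to the Golgi, at 169 and 181 RPKM. RAB18, a GTPase of lipid droplets and the endoplasmic reticulum, stood at 138 and 133 RPKM. RAB11B of the recycling endosome had 103 and 128 RPKM, and RAB32 of lysosome-related organelles 95.9 and 109 RPKM. RAB17, which is enriched in epithelia, had 79.9 and 85.4 RPKM. The order of these 7 was the same in both libraries. RAB5A, RAB14, RAB1A, RAB13 and RAB5C followed between 52.5 and 68.2 RPKM in either library, and their order differed between libraries. Of the 10 highest members, 8 were shared. The 5 members with the most counts held 55.7% of family counts in the V4 library and 53.3% in the V1 library. Lengths are those of the longest GENCODE v29 transcript, so a level is too low where a shorter transcript was made.

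**Figure D2:**
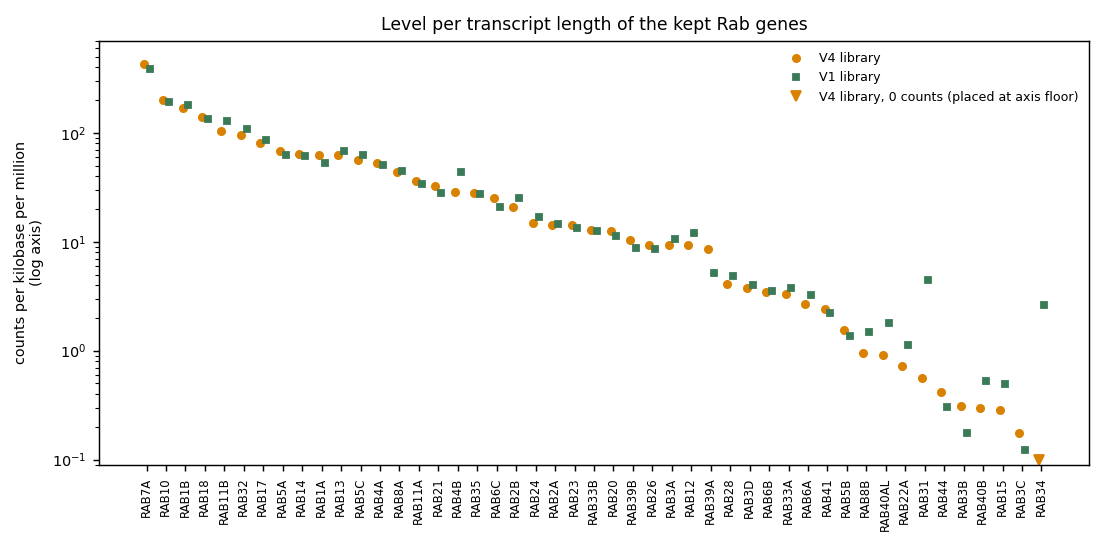
Level per transcript length of the 47 kept Rab genes (RPKM, log axis), ordered by the V4 library, with circles for the V4 library and squares for the V1 library. RAB7A is highest in both at 432 and 385 RPKM, and the widest gaps are at RAB31 (0.565 and 4.45 RPKM) and RAB34 (0, drawn as a triangle at the axis floor, and 2.63 RPKM).

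By route, at most 2 members were called on either side in any group, too few to read as a difference from the background. The groups are broad, and several members work at more than 1 site. The 15 kept members of the endoplasmic reticulum to Golgi and Golgi group had a median log2 ratio of 0.05, with RAB39A higher and RAB34 lower. That is 6.67% on each side, beside 7.1% lower and 5.5% higher among all kept genes. RAB39A was sorted into this group, although it is linked above to late endosomes. RAB1A, the partner of RAB1B on that route, had 1483 and 1189 counts in the V4 and V1 libraries, a ratio of 1.23 (interval 1.14 to 1.33). RAB2B, also of this route, had 587 and 684 counts, a ratio of 0.846 (interval 0.757 to 0.947). The 11 early endosome members had a median of -0.11, with RAB31 and RAB22A lower (18.2%, beside 7.1% of all kept genes). RAB21, which traffics integrins, had 4887 and 4048 counts, a ratio of 1.19 (interval 1.14 to 1.24). RAB5A, the master early endosome Rab, had 1663 and 1476 counts, a ratio of 1.11 (interval 1.04 to 1.19).

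The 9 kept recycling members had a median of -0.08 and 0 calls, beside 12.6% of all kept genes called in either direction. RAB12 had 191 and 239 counts, a ratio of 0.788 (interval 0.648 to 0.957), and RAB14, which moves cargo between Golgi and endosomes, had 2562 and 2330, a ratio of 1.08 (interval 1.02 to 1.15). RAB13 of the tight junction had 1280 and 1338 counts, and RAB35 had 797 and 746, with intervals that included 1. The 3 late endosome members, with RAB39A sorted elsewhere, had a median of -0.15 and 0 calls, beside the same 12.6%. RAB7A was at 9306 and 7991 counts, a ratio of 1.15 (interval 1.11 to 1.18), and RAB32 at 1122 and 1226, a ratio of 0.903 (interval 0.832 to 0.980). The 9 secretion members had a median of 0.10, with RAB3B higher and RAB8B lower (11.1% on each side, beside 7.1% lower and 5.5% higher among all kept genes). RAB10 had 6758 and 6236 counts, a ratio of 1.07 (interval 1.03 to 1.11), and RAB23, an inhibitor of hedgehog signalling, had 662 and 593, with an interval that included 1.

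The 3 members under the filter were RAB25, RAB42 and RAB43. RAB25, an epithelial relative of RAB11, had 6 counts in the V4 library and 1 in the V1 library, a ratio of 5.92 with an interval of 0.718 to 272. RAB42 had 4 and 0 counts. RAB43 had 0 counts in both. In GENCODE v29, 90.9% of the 50-base windows of the longest RAB43 transcript also occur in another gene, mostly the read-through gene ISY1-RAB43, and the sources used here do not say how reads common to several genes were counted.

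Paralogs with the same number gave a comparison that needs no library scaling, the share of each gene in the counts of its group. In the RAB4 group of fast recycling, RAB4A took 73.5% of 2058 counts in the V4 library (interval 71.6% to 75.4%) and 63.5% of 2170 counts in the V1 library (interval 61.4% to 65.5%). In the RAB11 group, RAB11A took 49.4% in the V4 library (interval 47.7% to 51.1%) and 42.7% in the V1 library (interval 41.1% to 44.4%). RAB1A took 31.2% of RAB1 counts in the V4 library (interval 29.9% to 32.6%) and 26.1% in the V1 library (interval 24.8% to 27.4%). RAB5A took 59.9% of RAB5 counts in the V4 library (interval 58.1% to 61.8%) and 55.8% in the V1 library (interval 53.9% to 57.7%). In these 4 of 11 groups the share intervals of at least 1 gene did not overlap, and in each the A paralog had the larger share in the V4 library. Single genes whose own ratio interval left out 1 made up 40.9% of all kept genes, and shares within other gene groups were not computed, so 4 of 11 is not read as particular to Rab genes. The other 7 groups had overlapping intervals for every gene. Of the 50-base windows of RAB4B 55.5% also occur in another gene, as do 20.5% of those of RAB4A and 36.2% of those of RAB5C. The shares in the RAB4 and RAB5 groups are therefore less certain than their intervals show.

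**Figure D3:**
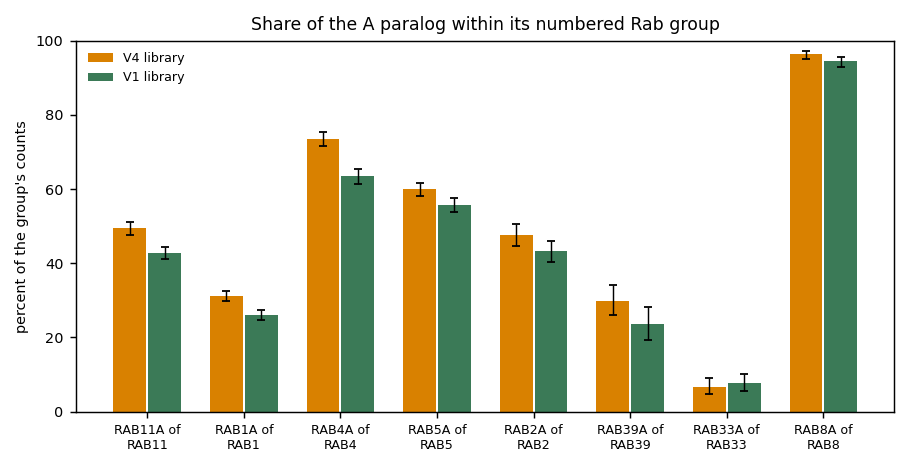
Percent of the counts of a numbered Rab group that fell on its A paralog, V4 library left and V1 library right, with bars from 0 and 95% exact counting intervals as error lines. The shares of RAB11A, RAB1A, RAB4A and RAB5A are higher in the V4 library with intervals that do not overlap, such as 73.5% against 63.5% for RAB4A, and those of the other 4 overlap. Some reads of the RAB4 and RAB5 groups could be claimed by other genes.

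Base composition and length went with the shares of these 4 groups, which were taken for their non-overlapping intervals. The paralog that lost share in the V4 library was the shorter and more GC-rich one in all 4 groups: RAB11B with 1751 bases and 63.5% GC beside RAB11A with 4930 bases and 37.2%, RAB1B with 61.1% beside RAB1A with 38.3%, RAB5C with 55.8% beside RAB5A with 42.0%, and RAB4B with 53.5% beside RAB4A with 39.3%. Over all 8072 kept genes with a length, the log2 ratio had a Spearman rho of 0.27 with length and -0.33 with GC content, and over the 47 kept members 0.26 and -0.28. These are descriptions across genes of the same 2 libraries. The RAB11A minus RAB11B difference in log2 ratio was 0.39, with 0.21 left after the length trend of all genes was removed and 0.01 after the GC trend was removed. For RAB1A minus RAB1B it was 0.36, with 0.33 left without the length trend and 0.03 without the GC trend. For RAB5A minus RAB5C it was 0.27, with 0.22 and 0.07 left. RAB4A minus RAB4B was 0.68, with 0.60 and 0.47 left. Pairs with overlapping shares were mixed. RAB2B and RAB33A, the shorter and more GC-rich of their pairs, had the lower log2 ratio. RAB8B is longer than RAB8A (4943 against 2827 bases) and less GC-rich (36.2% against 54.1%), yet had the lower ratio. RAB8A minus RAB8B was 0.61, with 0.72 left without the length trend and 0.86 without the GC trend. RAB39A, shorter than RAB39B, was higher by 0.45, with 0.57 and 0.45 left. Any part of length or GC content in these differences was not tested. RAB31 (log2 ratio -2.83, and -2.92 without the GC trend), RAB34 (-4.50 and -4.35) and RAB39A (0.75 and 0.65) kept their side with the GC trend removed. Removing a trend was chosen after seeing the data.

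**Figure D4:**
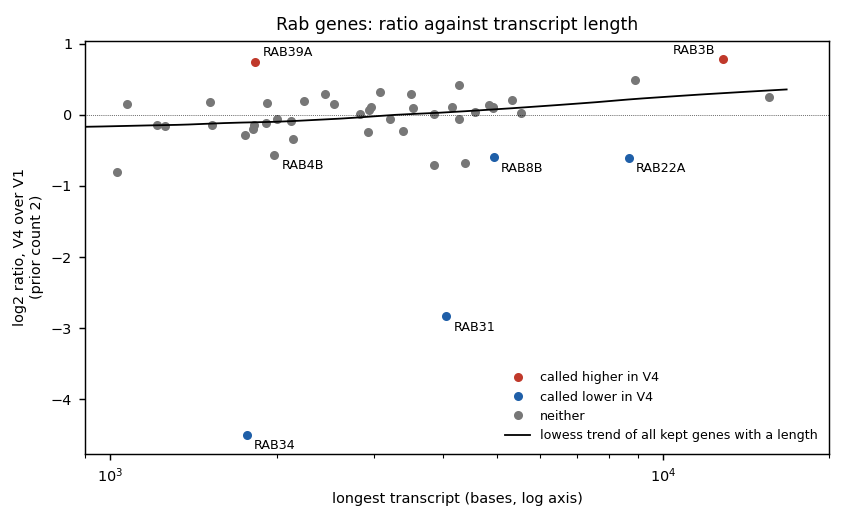
Log2 ratio with a prior count of 2, V4 library over V1 library, against the longest transcript (bases, log axis) for the 47 kept Rab genes, with the smoothed trend of all kept genes that have a length. RAB34 (-4.50) and RAB31 (-2.83) lie far below the trend, and RAB3B, at 0.78, lies nearer to it than to 0.

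Some values rest on reads that several genes could claim. RAB6C, a retrocopy, had 748 counts in the V4 library and 587 in the V1 library, whereas RAB6A, the Golgi GTPase it derives from, had 88 and 102. Of the 50-base windows of RAB6C, 55.8% occur in another gene, mainly RAB6D (47.4%). Of those of RAB6A 21.6% do, most often in RAB6C (15.3%), so the division of counts among these genes is uncertain. The same holds for RAB40AL (53.5%, mainly RAB40A), RAB4B (55.5%, mainly the read-through gene MIA-RAB4B), RAB24 (46.9%, the neighbour MXD3), RAB5C (36.2%), RAB4A (20.5%, SPHAR) and RAB13 (20.1%). Among the 39 kept members with at most 20% of such windows, the median log2 ratio was 0.05 and the calls were again 4 lower and 2 higher. Each of the 6 called members is among them.

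The genes that load, switch off and carry Rab proteins were read from lists chosen with earlier results of these data known. Of 33 kept exchange factors, 2 were lower, 2 higher and 29 neither, with a median of 0.09. That is 6.06% on each side, beside 7.1% lower and 5.5% higher among all kept genes. RIN3 is an exchange factor of the RAB5 subfamily, to which RAB31 belongs. It had 2 counts in the V4 library and 64 in the V1 library, 32.4-fold lower (interval 8.62 to 274). The mesenchymal markers COL1A2, COL3A1 and SPARC were lower in the same library, and COL5A2, LUM and TWIST1 were not. Any part of these markers in the result was not tested. RIN1, of the same kind, had 107 and 174 counts, 1.65-fold lower (interval 1.29 to 2.12). MADD, which activates RAB3 proteins, had 107 and 55 counts, 1.92-fold higher (interval 1.37 to 2.71). TRAPPC2, a subunit of the TRAPP complexes that act on Golgi Rabs, had 41 and 18 counts, 2.25-fold higher (interval 1.26 to 4.15). RPGR, a ciliary factor, had 12 and 23 counts with an interval that included 1. TRAPPC4, the most abundant, had 3272 and 3498 counts, a ratio of 0.923 (interval 0.879 to 0.968).

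Of 16 kept GTPase-activating proteins, 1 was lower, 1 higher and 14 neither (6.25% on each side, beside the same background of 7.1% and 5.5%), with a median of 0.03. TBC1D17 had 7 counts in the V4 library and 18 in the V1 library, 2.61-fold lower (interval 1.04 to 7.38), and TBC1D22B had 51 and 29, 1.73-fold higher (interval 1.08 to 2.84). RABGAP1L had 17 and 9 counts with an interval that included 1, and TBC1D2 had 65 and 91, a ratio of 0.705 (interval 0.504 to 0.979) under the fold. TBC1D9, the most abundant, had 2934 and 2284, a ratio of 1.27 (interval 1.20 to 1.34). Of 21 kept effectors, 1 was lower (4.76%, against 7.1% of all kept genes), 2 higher (9.52%, against 5.5%) and 18 neither, with a median of 0.16. RAB11FIP4, which binds RAB11, had 52 and 16 counts, 3.21-fold higher (interval 1.80 to 6.01), and ACAP2, which binds RAB35, had 18 and 5, 3.55-fold higher (interval 1.27 to 12.2). BICD2, a dynein adaptor that binds RAB6, had 9 and 21 counts, 2.37-fold lower (interval 1.04 to 5.87). LRRK1 had 9 and 19 counts with an interval that included 1. The myosin MYO5B, the most abundant, had 4128 and 3207 counts, a ratio of 1.27 (interval 1.21 to 1.33). The effector median was -0.01 with the length trend removed, and the median longest transcript of that list was 6699 bases against 3386.5 over all kept genes.

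Of 8 kept genes of prenylation and membrane extraction, 0 were called, beside 12.6% of all kept genes, and the median was -0.05. With so few genes, 0 calls is not read as a difference from the background. GDI2, an inhibitor that extracts inactive Rab proteins, had 782 and 610 counts, a ratio of 1.26 (interval 1.14 to 1.41). The escort protein gene CHML had 246 and 193 counts, a ratio of 1.26 (interval 1.04 to 1.53). RABAC1, which helps Rab proteins leave their inhibitor, had 3139 and 3793 counts, a ratio of 0.816 (interval 0.778 to 0.856), and RABIF, a chaperone of nucleotide-free Rab proteins, had 590 and 753, a ratio of 0.773 (interval 0.693 to 0.862).

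**Figure D5:**
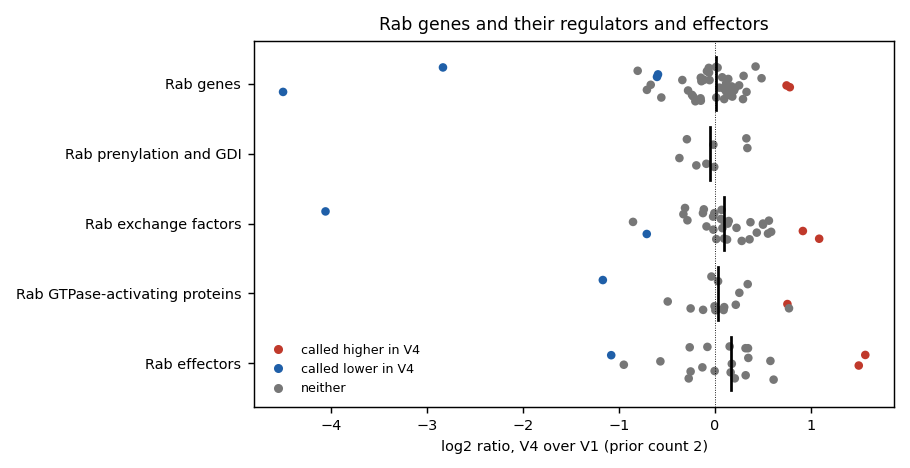
Log2 ratio with a prior count of 2, V4 library over V1 library, for kept Rab genes and 4 lists of their regulators and effectors, each point 1 gene (vertical scatter has no meaning) and each bar the list median. Medians lie between -0.05 and 0.16, and RAB34, RIN3 and RAB31 are the points farthest to the left.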

How the data were processed

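The authors deposited raw counts of reads for each gene symbol. Poly(A) RNA was read as 150-base single ends, per the labels' protocols, and the build was hg19 according to the submitters' processing notes. Aligner, counter, annotation, strand setting and any pooling of technical repeats: not given in the sources used here. Only columns whose names match a sample label entered, so 1 column of per-sample values went unused, no planned comparison with empty vector was made, and scaling and filtering used 2 libraries. Rows were added up for the 21 symbols that occur repeatedly, and 22 rows with a calendar date as symbol were kept unnamed.

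Libraries were scaled by TMM (edgeR 4.0.16, R 4.3.3), with factors of 0.988 (V4) and 1.01 (V1). Genes needed a mean of at least 1 CPM. Log2 ratios used a prior count of 2. Ratios printed without a scale are of scaled counts, with exact 95% (Clopper-Pearson) conditional binomial intervals (scipy 1.17.1). Intervals and floors of 3 counts describe counting error alone, because no molecular identifiers tie reads to independent molecules. For length and GC content the longest GENCODE v29 transcript of each name was used (91.3% of kept genes, matched also by older symbols), whose build is GRCh38, so no coordinates of the hg19 table are given. Trends were lowess fits (statsmodels 0.14.6, fraction 0.3). The script was tested on simulated data. Named genes were called members, the 10 highest per length, members at 0 counts, and for each list its called genes, the 4 with the largest ratio and the most abundant; others are given for their route, and a few genes the rule names are not reported here. The members and lists were chosen with earlier results of these data known.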

Additional observations from a re-analysis of the deposited data

How the results depend on the processing

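No paired analysis was possible because each group has 1 library, and leaving out a replicate was not possible for the same reason. The 4 Rab members called lower became 5 with total-count scaling and 3 at a mean of at least 5 CPM. They became 2 with a prior count of 8, 2 at a 2-fold threshold and 7 with no condition on the interval. The 2 called higher became 1 with total-count scaling, 1 at a mean of at least 5 CPM, 0 at 2-fold, and 1 each with a length or a GC trend removed. Under the remaining alternatives (DESeq2 1.42.0 median-of-ratios and upper-quartile scaling, no filter, prior count of 0.5) both numbers stayed at 4 and 2. RAB31 and RAB34 were called under each alternative run for them (RAB34 is under the filter at 5 CPM), and RAB39A under each except the 2-fold threshold. Of all 8840 kept genes, 1114 were called, 565 at 2-fold, 1042 with a prior count of 8 and 1540 with no condition on the interval. At a mean of at least 5 CPM, where fewer genes were kept, 526 were called. With the length or the GC trend removed, 918 and 894 of the kept genes with a length were called. The median log2 ratio of members ran from -0.02 to 0.03. The number of members with an interval above 1 was 13, and 8 with either trend removed. The share of all kept genes with such an interval after trend removal is not reported here. At a mean of at least 5 CPM, 38 members were left, 0 effectors and 0 GTPase-activating proteins were called, and 1 exchange factor was called on each side. With the GC trend removed RIN1 (log2 ratio -0.52), TBC1D17 (-1.02) and BICD2 (-1.01) lost their calls. Trend removals were chosen after seeing the data; the cause of these changes was not tested. Depth limits the members under about 100 counts most: RAB3B, RAB8B and RAB22A have intervals that end near 1.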
